A study of Mus musculus with 16 samples.

Results

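The rows 4932441J04Rik, 9330154J02Rik, Gm16277, Numb, Ddx4, Cobl, Rapgef4 and Vps13b had lower fragment counts in tibiae of NT3 mice than in tibiae of Ctrl mice. They are 8 of the 47517 rows in the count table. They were picked because earlier results of these data had shown them lower in NT3 bone. Their NT3 against Ctrl values are therefore a description, with no test. The change with loading, averaged over genotypes, played no part in the choice and is tested.

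The study measured RNA from cortical bone of the tibia in 8 male mice aged 16 weeks, with 1 library for each limb and 16 libraries in all. Its title concerns bone-forming cells in which NIK, the NF-kB inducing kinase made from Map3k14, was switched on. The 4 groups of 4 libraries were loaded tibiae of NT3 mice (labelled NT3-Cre+), non-loaded tibiae of the same mice, loaded tibiae of Ctrl mice, and non-loaded tibiae of those Ctrl mice. The right tibia was compressed on 9 days, 1200 cycles a day at 4 Hz, and the left tibia was not loaded. The peak force was 10.0 N in NT3 mice and 8.7 N in Ctrl mice, set to reach -2000 microstrain in both. Bones were collected 4 hours after loading ended, cleaned of muscle and flushed of marrow, with a mean RNA integrity number of 5.4. Which allele and which Cre the NT3 label stands for, and which alleles Ctrl mice carried, is not given in the sources used here.

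Few fragments were counted on gene rows. The total a library was 758394 to 911686 in loaded NT3 tibiae and 775531 to 961382 in non-loaded NT3 tibiae. It was 852831 to 1064391 in loaded Ctrl tibiae and 897909 to 998031 in non-loaded Ctrl tibiae. The number of fragments sequenced was not used here. Map3k14, the gene of NIK, had 1 to 9 fragments in NT3 libraries (2, 9, 7 and 2 in loaded tibiae, 1, 7, 5 and 5 in non-loaded tibiae of mice 1 to 4). It had 1 to 7 fragments in Ctrl libraries (1, 7, 3 and 4 in loaded tibiae, 4, 4, 1 and 1 in non-loaded tibiae). With counts this low, the row could not be used to check the genotype labels. Levels below are fragments per 1e+06 fragments after TMM scaling (CPM), and each list of 4 values runs over mice 1 to 4 of a genotype.

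Of the 8 rows, 5 are protein-coding genes and 3 are non-coding genes. Numb is an endocytic adaptor that restrains Notch signalling and is shared unequally between daughter cells at some divisions. Ddx4 is the mouse Vasa homologue, a DEAD-box RNA helicase known from germ cells and the piRNA pathway. Cobl nucleates actin filaments. Rapgef4, also called Epac2, is a cAMP-activated exchange factor for the small GTPase Rap1. Vps13b is a large lipid transfer protein of the Golgi, and its human counterpart is mutated in Cohen syndrome. No role is given here for the non-coding 4932441J04Rik, 9330154J02Rik and Gm16277. Each overlaps, on the other strand, exons of a coding gene: Pcdh7 (a delta protocadherin, a cell adhesion protein), Tpbg (trophoblast glycoprotein, an inhibitor of Wnt signalling at the cell surface) and Gfra1 (the GDNF co-receptor that acts with Ret).

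The 8 rows lie on 8 different chromosomes of GRCm38. In GENCODE M21, 4932441J04Rik spans chr5:57570082-57720201 on the minus strand and shares 2235 exon bases with the plus-strand Pcdh7. The minus-strand 9330154J02Rik at chr9:85820241-85844323 shares 898 exon bases with the plus-strand Tpbg. The plus-strand Gm16277 at chr19:58204139-58236047 shares 416 exon bases with the end of the minus-strand Gfra1. Numb lies at chr12:83794034-83921934 on the minus strand, Ddx4 at chr13:112598333-112652475 on the minus strand, and Cobl at chr11:12236608-12464960 on the minus strand. Rapgef4 lies at chr2:71981240-72257474 on the plus strand, where its exons share 337 bases with those of the antisense gene Rapgef4os2. Vps13b lies at chr15:35371160-35931229 on the plus strand and shares 250 exon bases with Cox6c, a subunit of cytochrome c oxidase. Numb and Vps13b also lie opposite the non-coding Gm46367 and Gm48960, not analysed here. Whether the counting used strand is not given in the sources used here, so reads of a row and of its partner on the other strand cannot be told apart where exons overlap.

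Promoter windows of 300 bases (250 before and 50 after the start) from RefSeq on GRCm38.p6 were matched for 4 of the 8 rows (Numb, Ddx4, Cobl and Rapgef4) and for Pcdh7, Tpbg and Gfra1. The first pair of windows is shown because each lies on an exon of a non-coding row on the other strand. The Pcdh7 window (chr5:57717831-57718130, plus strand) lies with all 300 of its bases in an exon of 4932441J04Rik, and the capitals mark the 50 bases after the Pcdh7 start. The second Tpbg window (chr9:85842602-85842901, plus strand) has 237 bases, in capitals, in an exon of 9330154J02Rik.
Pcdh7 window: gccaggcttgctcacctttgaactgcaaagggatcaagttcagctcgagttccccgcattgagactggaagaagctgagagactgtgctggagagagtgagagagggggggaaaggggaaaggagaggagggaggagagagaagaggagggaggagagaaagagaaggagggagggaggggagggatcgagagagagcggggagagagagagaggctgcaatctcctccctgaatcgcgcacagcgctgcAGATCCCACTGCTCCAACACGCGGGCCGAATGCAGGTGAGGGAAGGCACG
Tpbg window 2: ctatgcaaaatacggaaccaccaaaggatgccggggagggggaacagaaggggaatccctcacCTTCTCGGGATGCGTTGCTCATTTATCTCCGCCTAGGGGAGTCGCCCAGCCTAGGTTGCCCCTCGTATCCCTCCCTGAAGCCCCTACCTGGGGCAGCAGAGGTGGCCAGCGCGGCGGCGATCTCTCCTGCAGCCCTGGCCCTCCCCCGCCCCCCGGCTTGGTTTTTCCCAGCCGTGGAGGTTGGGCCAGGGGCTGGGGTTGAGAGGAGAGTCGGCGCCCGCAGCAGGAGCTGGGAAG

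The first window of each of the 4 protein-coding rows with an entry is shown next. Capitals mark matches to a loose form of the kB motif of NF-kB proteins. This form fixes the first 3 and the last 2 of 10 bases and allows any base between them. Whether NF-kB proteins bind these stretches was not tested. The motif was searched on both strands, a start where both strands match counts as 1, and overlapping matches at different starts count separately. It has 1 match in the first of 3 Numb windows (chr12:83921885-83922184, minus strand), none in the Ddx4 window (chr13:112652261-112652560, minus strand), 1 in the first of 2 Cobl windows (chr11:12464911-12465210, minus strand) and 1 in the Rapgef4 window (chr2:71980965-71981264, plus strand). Of the windows not printed, the second Cobl window and the Gfra1 window have 2 matches each, and the second and the third Numb windows and the first Tpbg window have none. The second Tpbg window, shown above, has 5 matches, and the Pcdh7 window has none. Of 32851 mouse windows of the same length, 50.8% hold at least 1 match, so a match in a window is common.
Numb window 1: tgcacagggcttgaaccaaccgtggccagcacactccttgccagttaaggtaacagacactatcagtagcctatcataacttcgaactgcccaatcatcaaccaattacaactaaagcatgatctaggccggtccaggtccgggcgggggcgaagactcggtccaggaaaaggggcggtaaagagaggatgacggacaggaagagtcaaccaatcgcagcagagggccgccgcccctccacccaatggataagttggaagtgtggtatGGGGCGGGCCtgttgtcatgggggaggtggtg
Ddx4 window: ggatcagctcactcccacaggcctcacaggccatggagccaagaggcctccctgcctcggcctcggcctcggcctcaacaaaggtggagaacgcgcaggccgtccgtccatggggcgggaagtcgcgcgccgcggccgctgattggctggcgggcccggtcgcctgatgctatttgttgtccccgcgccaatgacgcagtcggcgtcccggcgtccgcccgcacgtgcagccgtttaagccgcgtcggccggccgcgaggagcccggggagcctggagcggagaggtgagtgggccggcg
Cobl window 1: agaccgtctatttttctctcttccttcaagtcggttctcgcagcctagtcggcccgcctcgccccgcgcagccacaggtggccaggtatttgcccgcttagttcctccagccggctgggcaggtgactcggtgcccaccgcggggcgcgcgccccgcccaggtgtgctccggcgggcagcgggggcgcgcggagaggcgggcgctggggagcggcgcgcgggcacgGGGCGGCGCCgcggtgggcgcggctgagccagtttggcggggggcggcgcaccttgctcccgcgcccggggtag
Rapgef4 window: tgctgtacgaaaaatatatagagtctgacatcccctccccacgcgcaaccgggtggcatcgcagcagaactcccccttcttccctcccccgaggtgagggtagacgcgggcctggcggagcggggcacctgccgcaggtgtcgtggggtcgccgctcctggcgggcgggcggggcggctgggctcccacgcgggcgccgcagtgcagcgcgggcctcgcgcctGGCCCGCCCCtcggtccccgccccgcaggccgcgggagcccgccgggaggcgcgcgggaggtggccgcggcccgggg

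The rows differed widely in level. Per 1000 bases of row length as deposited, the mean over all 16 libraries was 448 CPM for 4932441J04Rik, 199 for Gm16277 and 49.4 for 9330154J02Rik, and each of these was above the next row in 16 of 16 libraries. Ddx4 followed at 19.1 and Numb at 10.0 CPM per 1000 bases, with Ddx4 above Numb in 15 of 16 libraries and Numb above Rapgef4 in 15 of 16. Rapgef4 at 6.27 and Vps13b at 5.26 changed places between libraries, Rapgef4 being higher in 10 of 16. Cobl was lowest at 3.36 and was below Vps13b in 13 of 16 libraries. The deposited length equals the GENCODE exon length for 5 rows and is shorter for Numb, Ddx4 and Vps13b, at 3823, 2849 and 13370 bases against 3917, 3014 and 21273. In raw reads, 4932441J04Rik had 820 to 3094 fragments a library, Numb 11 to 67, Ddx4 13 to 101, Rapgef4 7 to 104 and Cobl 4 to 58.

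The row of Numb, the Notch regulator, was lower in NT3 bone of both limbs. In loaded tibiae it had 14.0, 19.6, 25.0 and 15.4 CPM in NT3 mice, against 52.5, 54.4, 53.6 and 35.0 CPM in Ctrl mice. In non-loaded tibiae it had 35.9, 26.0, 20.6 and 21.3 CPM in NT3 mice, against 48.2, 56.1, 72.3 and 64.1 CPM in Ctrl mice. The groups did not overlap in either limb, and Ctrl mouse 4 was the low one among loaded Ctrl tibiae. Its NT3 minus Ctrl difference was -1.40 (SE 0.29) on the log2 scale in loaded tibiae and -1.22 (SE 0.26) in non-loaded tibiae. The NT3 level was 37.9% of the Ctrl level in loaded tibiae and 43.2% in non-loaded tibiae. In bulk bone RNA, fewer cells of a type and less RNA per cell cannot be told apart, here and for every row that follows. Nor was it tested, for any of these rows, whether the level is that of the named gene's own RNA.

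Ddx4, the germ-cell helicase, had a larger mean difference than Numb in both limbs. With loading, levels were 16.2, 27.9, 17.1 and 22.4 CPM in NT3 mice, against 70.4, 81.0, 81.1 and 55.3 CPM in Ctrl mice. Without loading, levels were 29.4, 40.7, 41.3 and 30.9 CPM in NT3 mice, against 51.7, 113, 87.4 and 103 CPM in Ctrl mice. No NT3 library reached the lowest Ctrl library of its limb, and Ctrl mouse 1 was the low one among non-loaded Ctrl tibiae. NT3 minus Ctrl on the log2 scale was -1.79 (SE 0.26) in loaded tibiae and -1.34 (SE 0.24) in non-loaded tibiae. Means were 20.9 ± 5.44 CPM in loaded NT3 tibiae and 72.0 ± 12.2 CPM in loaded Ctrl tibiae (SD, n = 4 each).

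Cobl, the actin nucleator, was the lowest row per length and varied widely between mice. Loaded tibiae held 4.31, 11.2, 22.4 and 5.61 CPM in NT3 mice, against 44.1, 57.3, 62.8 and 36.1 CPM in Ctrl mice. Non-loaded tibiae held 9.80, 26.0, 6.45 and 5.33 CPM in NT3 mice, against 7.06, 58.4, 41.0 and 39.7 CPM in Ctrl mice. The groups overlapped in non-loaded tibiae, where Ctrl mouse 1 lay below 2 of the 4 NT3 mice, and did not overlap in loaded tibiae. The log2 difference was -2.21 (SE 0.37) in loaded tibiae and -1.62 (SE 0.61) in non-loaded tibiae. Mean levels were 10.9 ± 8.23 CPM in loaded NT3 tibiae and 50.1 ± 12.2 CPM in loaded Ctrl tibiae (SD, n = 4 each).

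Rapgef4, the cAMP-responsive activator of Rap1, was lower by a similar ratio in both limbs. After loading it stood at 15.1, 22.4, 11.8 and 15.4 CPM in NT3 mice, against 54.9, 103, 40.6 and 36.1 CPM in Ctrl mice. In the non-loaded limb it stood at 7.62, 45.2, 14.2 and 16.0 CPM in NT3 mice, against 42.3, 96.9, 73.3 and 75.3 CPM in Ctrl mice. The groups did not overlap in loaded tibiae and met in non-loaded tibiae, where NT3 mouse 2 lay above Ctrl mouse 1. NT3 mouse 2 was the highest NT3 mouse in both limbs, and Ctrl mouse 2 the highest Ctrl mouse. On the log2 scale, NT3 minus Ctrl was -1.87 (SE 0.33) in loaded tibiae and -1.80 (SE 0.43) in non-loaded tibiae, at 27.6% and 28.8% of the Ctrl level in loaded and non-loaded tibiae.

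Vps13b, the Golgi lipid transfer protein, had unlike gaps in the limbs. The loaded limbs gave 89.4, 33.5, 42.1 and 72.9 CPM in NT3 mice, against 64.4, 98.8, 74.6 and 56.5 CPM in Ctrl mice. The non-loaded limbs gave 42.5, 44.0, 34.8 and 73.6 CPM in NT3 mice, against 78.8, 102, 96.0 and 122 CPM in Ctrl mice. The groups were apart in non-loaded tibiae but overlapped in loaded tibiae, where NT3 mouse 1 lay above 3 of the 4 Ctrl mice. NT3 minus Ctrl on the log2 scale was -0.30 (SE 0.26) in loaded tibiae and -1.04 (SE 0.22) in non-loaded tibiae. The loaded value was -0.57 without NT3 mouse 1, -0.11 without NT3 mouse 2 or Ctrl mouse 2, -0.16 without NT3 mouse 3 and -0.14 with a marrow marker covariate. The NT3 level was 80.9% of the Ctrl level in loaded tibiae and 48.9% in non-loaded tibiae.

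The abundant 4932441J04Rik, opposite Pcdh7, was lower in NT3 bone by a smaller ratio. Loaded tibiae had 1366, 1963, 1677 and 1150 CPM in NT3 mice, against 2558, 3058, 3272 and 2217 CPM in Ctrl mice. Non-loaded tibiae had 1655, 2300, 1616 and 951 CPM in NT3 mice, against 2105, 2600, 2842 and 2457 CPM in Ctrl mice. The groups were apart in loaded tibiae, and in non-loaded tibiae NT3 mouse 2 lay above Ctrl mouse 1. The log2 difference was -0.85 (SE 0.16) in loaded tibiae and -0.63 (SE 0.20) in non-loaded tibiae.

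The row 9330154J02Rik, opposite Tpbg, gave ratios close to those of 4932441J04Rik. The level in loaded tibiae was 110, 163, 167 and 132 CPM in NT3 mice, against 219, 283, 284 and 247 CPM in Ctrl mice. The level in non-loaded tibiae was 182, 207, 169 and 73.6 CPM in NT3 mice, against 211, 236, 301 and 220 CPM in Ctrl mice. The groups did not overlap in either limb, although NT3 mouse 2 and Ctrl mouse 1 stood close together in non-loaded tibiae. On the log2 scale, NT3 minus Ctrl was -0.86 (SE 0.15) in loaded tibiae and -0.63 (SE 0.25) in non-loaded tibiae. Without NT3 mouse 4, the lowest at 73.6 CPM, the non-loaded value was -0.37.

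The row Gm16277, opposite Gfra1, was tightest in non-loaded Ctrl tibiae. Loaded limbs showed 54.9, 76.9, 98.7 and 72.9 CPM in NT3 mice, against 148, 179, 192 and 94.9 CPM in Ctrl mice. Non-loaded limbs showed 75.1, 111, 107 and 57.6 CPM in NT3 mice, against 223, 214, 205 and 201 CPM in Ctrl mice. The groups were well apart in non-loaded tibiae and touched in loaded tibiae, where Ctrl mouse 4 lay just below NT3 mouse 3. NT3 minus Ctrl on the log2 scale was -1.02 (SE 0.21) in loaded tibiae and -1.28 (SE 0.19) in non-loaded tibiae.

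**Figure D1:**
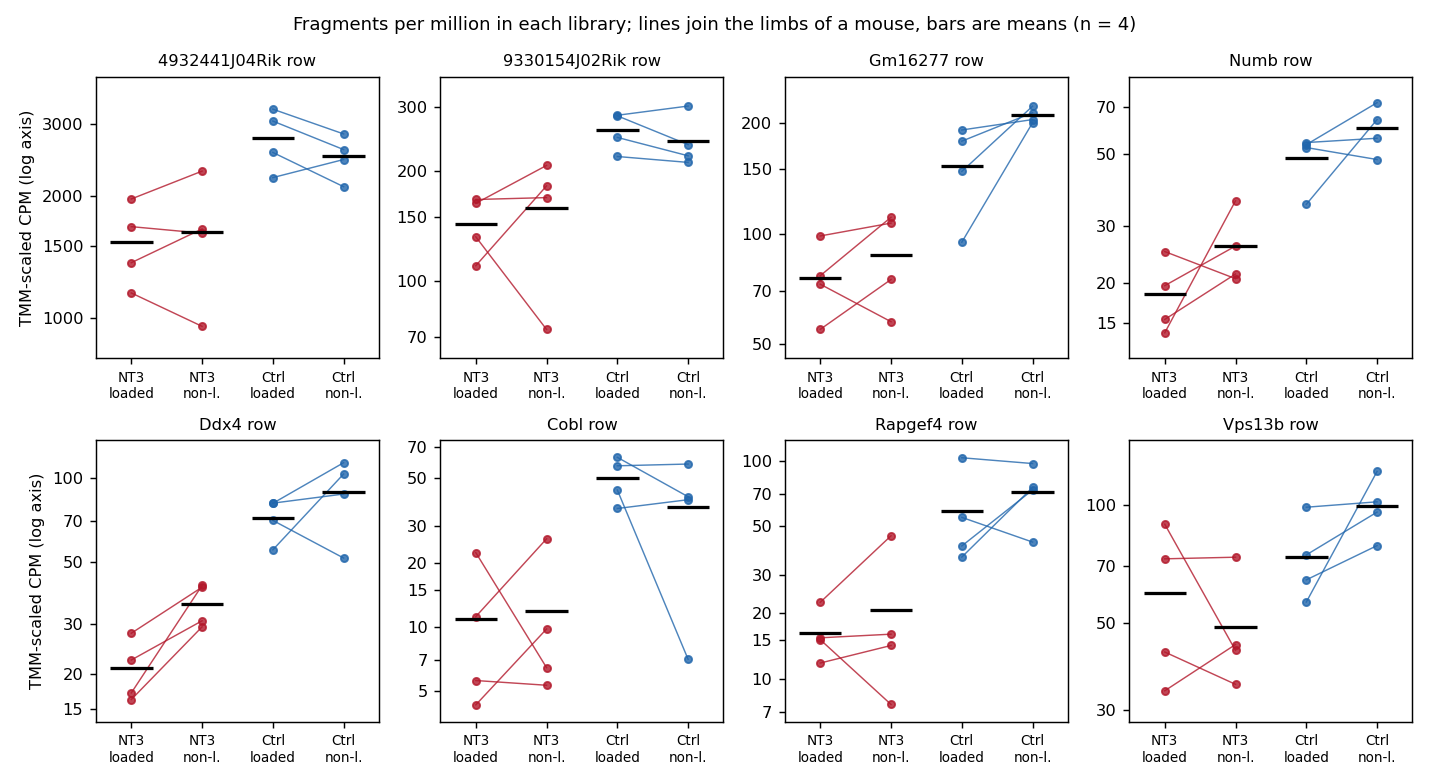
TMM-scaled CPM (log axis) of each of the 8 rows in every library, with NT3 in red left of Ctrl in blue, loaded left of non-loaded in each genotype, lines joining the limbs of a mouse and black bars at the means (n = 4). Numb, Ddx4 and 9330154J02Rik have no NT3 library at or above the Ctrl libraries of the same limb, while Gm16277 and Vps13b overlap in loaded tibiae and Cobl, Rapgef4 and 4932441J04Rik in non-loaded tibiae.

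Set side by side, the NT3 minus Ctrl difference in the limbs lay within overlapping standard errors for 7 of the 8 rows, with Vps13b the exception. In the fits within a limb the difference was larger in loaded than in non-loaded tibiae for 6 rows and smaller for 2 (Gm16277 and Vps13b). In the fit of all libraries with the replicate block, the loaded minus non-loaded change of the NT3 minus Ctrl difference was 0.72 (SE 0.31) for Vps13b and -0.71 (SE 0.61) for Cobl on the log2 scale. It was -0.49 (SE 0.34) for Ddx4, 0.29 (SE 0.24) for Gm16277 and -0.20 (SE 0.39) for Numb. For 4932441J04Rik it was -0.19 (SE 0.16), for 9330154J02Rik -0.20 (SE 0.22) and for Rapgef4 0.12 (SE 0.43), which was -0.08 with no replicate block. Relative to its standard error, the Vps13b value was the largest of the 8. With 1 mouse left out, Vps13b ran from 0.40 (without NT3 mouse 1) to 0.90, Cobl from -1.48 (without NT3 mouse 3) to -0.16 (without NT3 mouse 2), and Ddx4 from -0.70 to -0.28 (without Ctrl mouse 1). Numb ran from -0.47 (without NT3 mouse 3) to 0.11 (without NT3 mouse 1), Rapgef4 from -0.19 (without NT3 mouse 1) to 0.55 (without NT3 mouse 2) and 9330154J02Rik from -0.48 (without NT3 mouse 4) to 0.02 (without NT3 mouse 1). Gm16277 ran from 0.10 (without Ctrl mouse 4) to 0.43 and 4932441J04Rik from -0.32 (without NT3 mouse 4) to -0.11 (without NT3 mouse 1). The median difference over the 8 rows was -1.21 in loaded tibiae and -1.25 in non-loaded tibiae, beside -0.00 and -0.01 over all rows tested in loaded and non-loaded tibiae, a contrast that the choice of rows fixes.

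**Figure D2:**
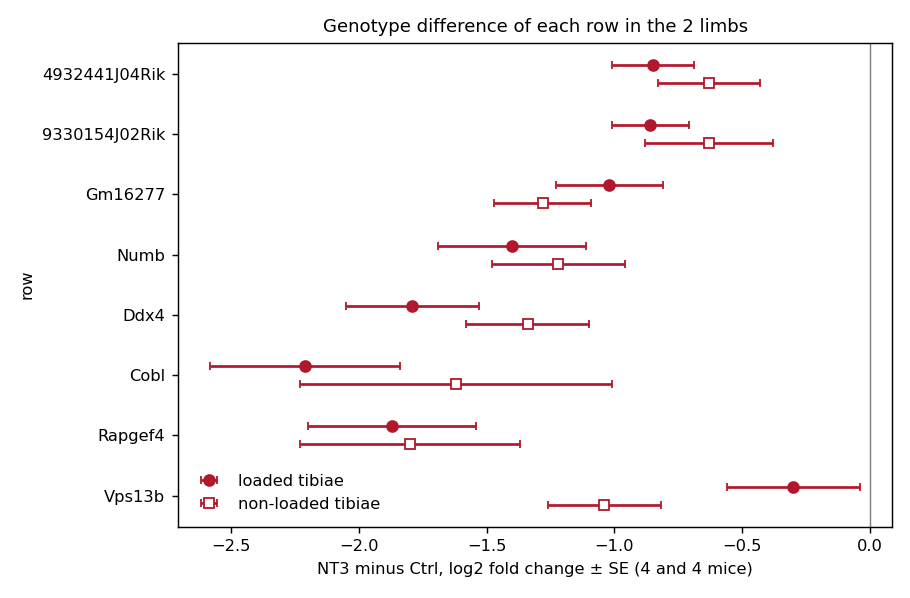
NT3 minus Ctrl log2 fold change of each row with its standard error from the edgeR fit, for loaded tibiae (filled circles) and non-loaded tibiae (open squares), 4 NT3 and 4 Ctrl mice in each. Vps13b is at -0.30 in loaded and -1.04 in non-loaded tibiae, and the error bars of the 2 limbs overlap for the other 7 rows.

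As a description, 7 of the 8 rows (not Vps13b) passed an adjusted p of 0.05 as lower in loaded tibiae in edgeR's quasi-likelihood test, where 1.33% of 6080 rows did. In non-loaded tibiae 4 did (Gm16277, Numb, Ddx4 and Vps13b), where 0.161% of 6220 rows did. Groups did not overlap for 6 rows in loaded tibiae, where the same held for 3.67% of all rows, and for 5 rows in non-loaded tibiae, where it held for 1.77%. Nothing is read from these counts, since the rows were picked on the same contrasts. The non-loaded count rested on single mice: it was 1 (Gm16277) without Ctrl mouse 2, 2 without Ctrl mouse 3, Ctrl mouse 4 or NT3 mouse 3, and 6 without Ctrl mouse 1. The non-loaded count was 5 by DESeq2 and 7 with no filter. In loaded tibiae the count was 7 whichever mouse was left out, and 6 (Cobl not called) in 1 fit for all libraries. With both limbs summed it was 8. These counts too only describe rows picked on this contrast.

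Averaged over the limbs of each mouse, 7 of the 8 rows had each NT3 mouse below each Ctrl mouse, as did 3.17% of 7192 rows. The rows were picked on this contrast, so nothing is read from the count. The gap between the highest NT3 mouse and the lowest Ctrl mouse was 0.99 on the log2 CPM scale for Numb, 0.80 for Ddx4, 0.56 for Rapgef4 and 0.42 for Gm16277. It was 0.22 for 9330154J02Rik, 0.13 for 4932441J04Rik and 0.09 for Cobl, and Vps13b overlapped by 0.04. NT3 mouse 2 was the highest NT3 mouse for 5 rows, NT3 mouse 3 for 2 and NT3 mouse 4 for 1 (Vps13b). Ctrl mouse 1 was the lowest Ctrl mouse for 6 rows and Ctrl mouse 4 for the other 2 (Gm16277 and Numb).

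The spread between mice varied by row more than by genotype. The standard deviation of limb-averaged log2 CPM was 0.14 in NT3 and 0.16 in Ctrl mice for Numb, and 0.24 and 0.27 in NT3 and Ctrl mice for Ddx4. It was 0.62 in NT3 and 0.68 in Ctrl mice for Cobl, and 0.61 in NT3 and 0.47 in Ctrl mice for Rapgef4. It was larger in NT3 than in Ctrl mice for 5 rows, with 0.46 against 0.20 for Vps13b, 0.42 against 0.20 for 4932441J04Rik, 0.39 against 0.19 for 9330154J02Rik and 0.34 against 0.24 for Gm16277. No test of this spread was made with 4 mice a genotype.

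Loading, the comparison that the choice of rows did not use, changed none of the 8 rows past the threshold. In edgeR's quasi-likelihood test with a replicate block for mouse, 0 of 8 rows were called at an adjusted p of 0.05, where 4.39% of 7192 rows were (3.24% higher and 1.15% lower in loaded tibiae). DESeq2 also called 0 of 8, and 3 of the 8 had an unadjusted edgeR p under 0.05, where 15.7% of all rows did. Ddx4 came nearest, at -0.52 (SE 0.17) on the log2 scale with an adjusted p of 0.072. Its value was lower in the loaded limb of 7 of 8 mice, among them all 4 NT3 mice, and higher in Ctrl mouse 1. Without Ctrl mouse 1 it was -0.63 with an adjusted p of 0.034, and over its alternatives the adjusted p ran from 0.034 to 0.237.

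Gm16277 was at -0.35 (SE 0.12) with an adjusted p of 0.102 in edgeR and was lower in the loaded limb of 7 of 8 mice, the exception being NT3 mouse 4. Without NT3 mouse 4 it was at -0.42 with an adjusted p of 0.047, and over its alternatives the adjusted p ran from 0.047 to 0.475. Numb was at -0.40 (SE 0.20) with an adjusted p of 0.308 in edgeR and was lower in the loaded limb of 6 of 8 mice. The 2-sided exact sign-flip test over the 8 mice, unadjusted and able to go no lower than 0.00781, gave p = 0.0312 for Ddx4, 0.0469 for Gm16277 and 0.0547 for Numb. Of 7192 rows, 1.17% were lower in the loaded limb of 8 of 8 mice, and none of these 8 rows was.

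The other 5 rows had no shared direction with loading. Rapgef4 was at -0.28 (SE 0.21) and Vps13b at -0.09 (SE 0.15), with edgeR adjusted p values of 0.584 and 0.869. The edgeR values for 4932441J04Rik, at 0.05 (SE 0.08), and 9330154J02Rik, at 0.00 (SE 0.11), had adjusted p values of 0.857 and 0.997. Cobl was at 0.21 (SE 0.31) with an edgeR adjusted p of 0.84, and its mice ran from -1.07 in NT3 mouse 2 to 2.31 in Ctrl mouse 1. The Ctrl mouse 1 value stands on a non-loaded library with 7.06 CPM.

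Within a genotype the loading values are descriptions, because they share libraries with the contrasts that chose the rows. edgeR called none of the 8 rows in NT3 mice, where it called 0.417% of all rows, or in Ctrl mice, where it called 4.07%, and none for the difference between the genotypes' loading changes, where it called 0.139%. DESeq2 called none of the 8 in these comparisons, and 1 in NT3 mice, 2 in Ctrl mice and 1 for the difference had an unadjusted edgeR p under 0.05, where 7.59%, 14.8% and 6.56% of all rows did in NT3 mice, in Ctrl mice and for the difference. Ddx4 was at -0.77 (SE 0.27) in NT3 and -0.28 (SE 0.21) in Ctrl mice, and Gm16277 at -0.20 (SE 0.18) in NT3 and -0.49 (SE 0.16) in Ctrl mice. Numb was at -0.50 (SE 0.31) in NT3 and -0.30 (SE 0.24) in Ctrl mice. Vps13b was at 0.27 (SE 0.23) in NT3 and -0.45 (SE 0.20) in Ctrl mice, with a lower value in the loaded limb of 2 of 4 NT3 and 4 of 4 Ctrl mice. Cobl was at -0.15 (SE 0.50) in NT3 and 0.56 (SE 0.35) in Ctrl mice, the Ctrl value being 0.02 with a marrow marker covariate.

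Single mice moved these within-genotype values. In NT3 mice, Cobl ran from -0.91 (without NT3 mouse 3) to 0.39 (without NT3 mouse 2) and Numb from -0.77 (without NT3 mouse 3) to -0.19 (without NT3 mouse 1). Vps13b in NT3 mice was -0.04 without NT3 mouse 1, and Gm16277 ran from -0.36 (without NT3 mouse 4) to -0.10 (without NT3 mouse 2). In Ctrl mice, Ddx4 ran from -0.49 (without Ctrl mouse 1) to -0.06 (without Ctrl mouse 4), and Cobl was 0.16 without Ctrl mouse 1. Without Ctrl mouse 4 the Ctrl values of Numb, Gm16277 and Vps13b were -0.11, -0.29 and -0.21.

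**Figure D3:**
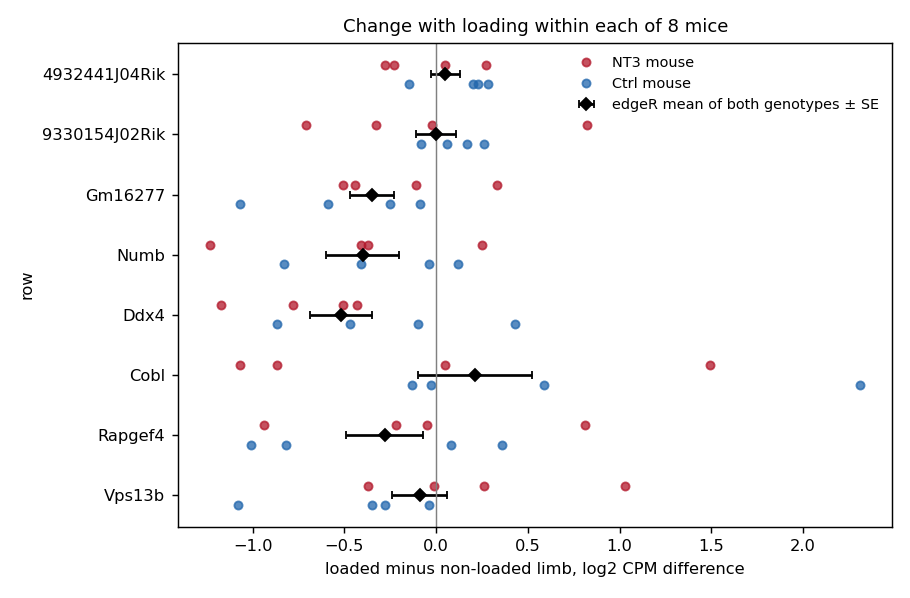
Loaded minus non-loaded difference in log2 CPM of each row within each mouse (NT3 red, Ctrl blue), with the edgeR mean over both genotypes and its standard error as black diamonds. The Ddx4 points of all 4 NT3 mice lie left of 0, and the Cobl points spread from -1.07 to 2.31.

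The rows of the genes on the other strand were far lower than the non-coding rows. Which strand was counted is not given in the sources used here. Whether these row levels are levels of the genes' own RNA was not tested. Pcdh7, the protocadherin, averaged 1.71 CPM per 1000 bases, against 448 for 4932441J04Rik. It had 7, 15, 17 and 3 fragments in loaded NT3 tibiae and 12, 11, 20 and 15 in loaded Ctrl tibiae. In non-loaded tibiae it had 16, 26, 7 and 5 fragments in NT3 mice and 16, 28, 25 and 26 in Ctrl mice. These ranges overlapped in both limbs. Its NT3 minus Ctrl difference was -0.30 (SE 0.46) in loaded and -0.78 (SE 0.39) in non-loaded tibiae, with edgeR adjusted p values of 0.871 and 0.644, and it was not called.

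Tpbg, the Wnt inhibitor, averaged 3.26 CPM per 1000 bases, against 49.4 for 9330154J02Rik. It had 5, 8, 6 and 3 fragments in loaded NT3 tibiae and 11, 17, 6 and 23 in loaded Ctrl tibiae. Without loading, levels were 5, 9, 7 and 6 fragments in NT3 mice and 9, 23, 14 and 23 in Ctrl mice. It was too low to be tested between genotypes. Ctrl mouse 3 was level with the NT3 mice in loaded tibiae, and in non-loaded tibiae the lowest Ctrl count equalled the highest NT3 count. Part of the Tpbg row lies under exons of 9330154J02Rik, so whether the rows are separate signals was not tested.

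Gfra1, the GDNF co-receptor, had 0 to 5 fragments a library and was not tested. It had 2, 0, 0 and 2 fragments in loaded NT3 tibiae and 3, 5, 3 and 4 in loaded Ctrl tibiae, and 0 in each non-loaded NT3 tibia against 3, 0, 1 and 2 in non-loaded Ctrl tibiae. In loaded tibiae the counts of the genotypes did not overlap, and in non-loaded tibiae they did. A count of 0 allows up to 3 fragments, so these counts are too low to read a difference from. Gm16277 averaged 199 CPM per 1000 bases over the same libraries, against 0.326 for Gfra1.

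The rows opposite Rapgef4 and Vps13b were higher than the Rapgef4 and Vps13b rows, with the same limit on strand. Rapgef4os2, whose exons overlap those of Rapgef4, averaged 187 CPM per 1000 bases, against 6.27 for Rapgef4. It had 319, 400, 436 and 268 CPM in loaded NT3 tibiae and 427, 576, 515 and 394 CPM in loaded Ctrl tibiae. Its NT3 minus Ctrl difference was -0.43 (SE 0.15) in loaded and -0.05 (SE 0.17) in non-loaded tibiae, with edgeR adjusted p values of 0.132 and 0.981. Rapgef4os1 and Rapgef4os3, which lie in the span of Rapgef4 without exon overlap, were also not called, with differences of -0.09 and -0.31 in loaded tibiae (edgeR adjusted p 0.949 and 0.442). Cox6c, opposite the end of Vps13b, was at -0.41 (SE 0.18) in loaded and -0.16 (SE 0.18) in non-loaded tibiae, with edgeR adjusted p values of 0.306 and 0.93.

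**Figure D4:**
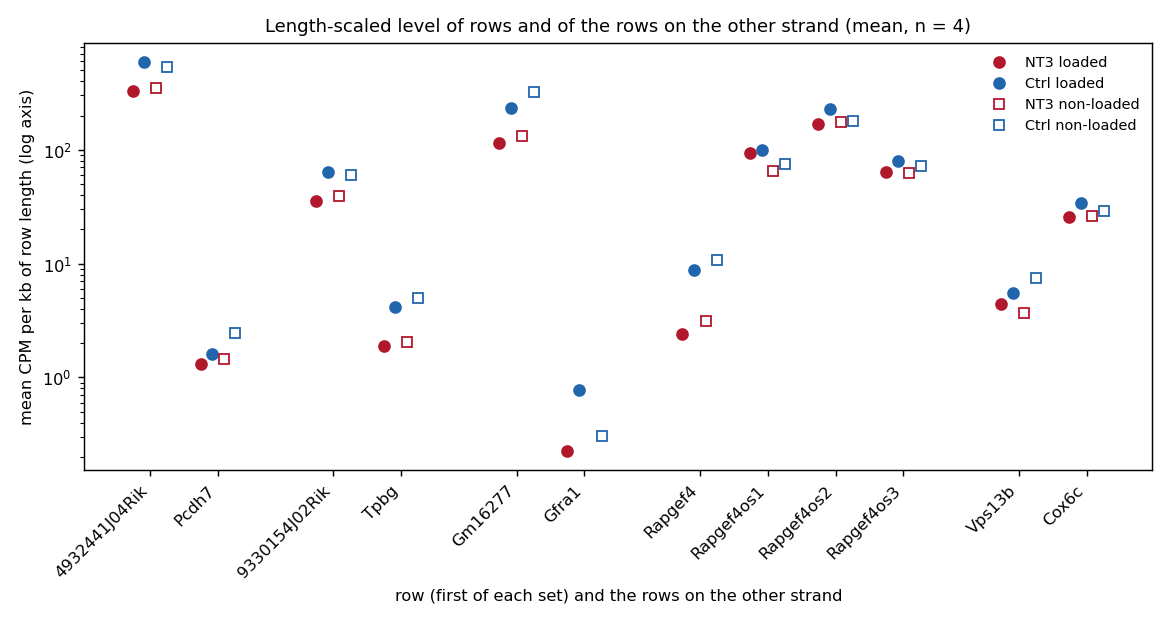
Mean CPM per 1000 bases of row length (log axis, n = 4 libraries) for 5 of the rows and for rows on their other strand, NT3 in red and Ctrl in blue, loaded filled and non-loaded open. Pcdh7, Tpbg and Gfra1 lie far below the non-coding rows opposite them, Rapgef4os2 lies above Rapgef4, and Gfra1 in non-loaded NT3 tibiae, at 0, is off the log axis.

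The genes beside the 8 rows were about evenly split in direction. Of 264 rows within 1 Mb of a member, 38 could be tested between genotypes in loaded tibiae and 40 in non-loaded tibiae. In loaded tibiae 20 of the 38 were below 0 (52.6%, beside 50.2% of all rows), and in non-loaded tibiae 22 of the 40 (55%, beside 51.6% of all rows). edgeR called 1 of them in each limb, where it called 2.65% of all rows in loaded and 0.579% in non-loaded tibiae, and it was higher in NT3: D030025P21Rik, 953835 bases from Numb, at 1.88 (SE 0.14, adjusted p 4.1e-11) in loaded and 1.90 (SE 0.19, adjusted p 1.4e-06) in non-loaded tibiae. None was called lower by edgeR. Of these rows, 5 in loaded and 3 in non-loaded tibiae had an unadjusted edgeR p under 0.05 in either direction. The same held for 13.3% of all rows in loaded and 7.81% in non-loaded tibiae. DESeq2 called 1 of the neighbours in each limb. With loading, 1 of 46 tested rows was called by edgeR, Rwdd2a, 727668 bases from 9330154J02Rik, higher in loaded tibiae at 2.98 (SE 0.64, adjusted p 0.0019), a call lost with a marrow marker covariate (adjusted p 0.076).

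**Figure D5:**
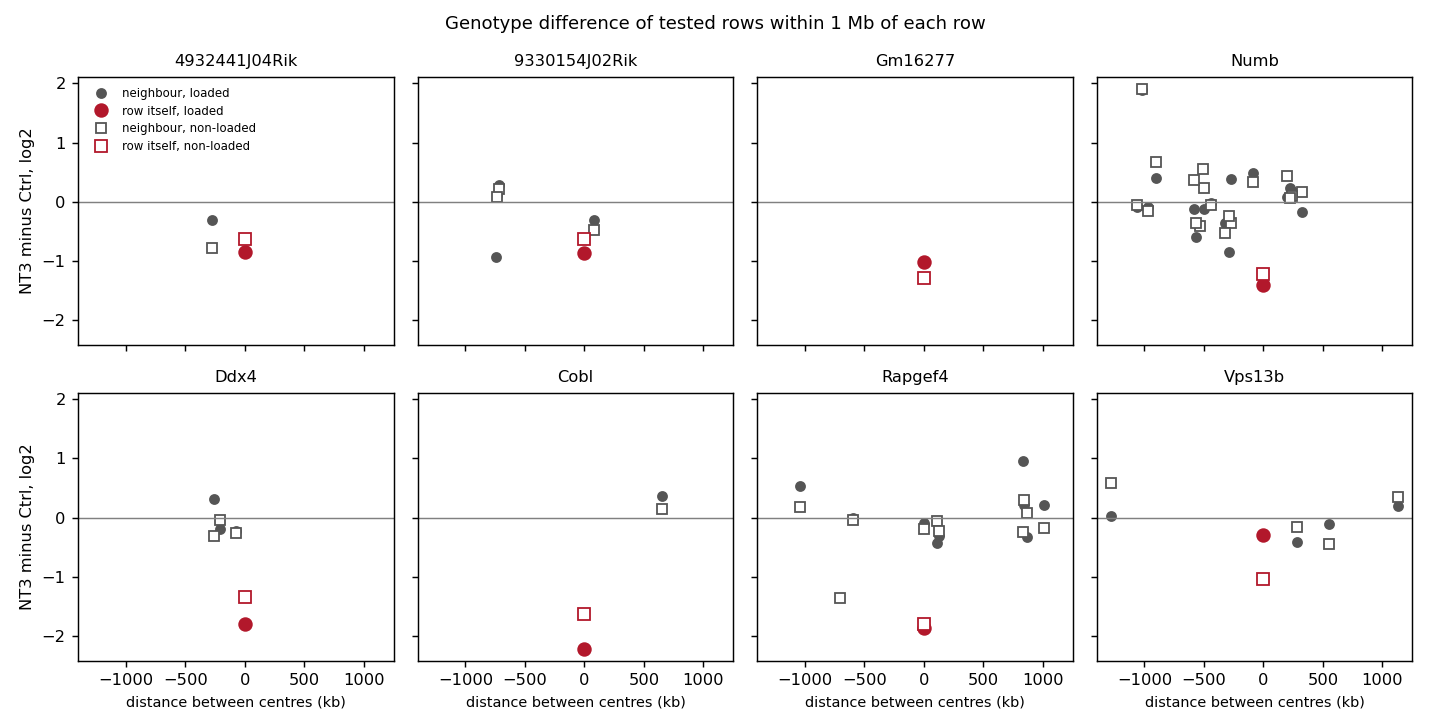
NT3 minus Ctrl log2 fold change of rows within 1 Mb of each of the 8 rows against the distance between gene centres in kb, with loaded tibiae filled and non-loaded tibiae open, and the row itself in red at 0. The grey points lie around 0 for most rows, D030025P21Rik stands at 1.90 beside Numb, and no neighbour of Gm16277 could be tested.

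Across the 16 libraries the rows moved together to differing degrees, and the values are given as descriptions of libraries that share genotype and depth. Over the 28 pairs of members, Pearson's r of log2 CPM ran from 0.20 to 0.95 with a median of 0.79. After the group means were taken off, r ran from -0.56 to 0.87 with a median of 0.46, and 22 of 28 pairs were above 0. The pair 4932441J04Rik and 9330154J02Rik had the highest value, 0.95 over all 16 libraries and 0.87 around the group means.

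The rows most like each member were sought among 4113 rows by r of log2 CPM over the 16 libraries. For 4932441J04Rik they were 9130019P16Rik (r 0.97) and Gm28592 (r 0.95), and for 9330154J02Rik they were Gm29491 (r 0.95) and 4932441J04Rik. 9130019P16Rik lies opposite Chn2, Prr15 and Wipf3, Gm28592 opposite Phlda1, and Gm29491 opposite Tgfb2. For Gm16277 they were Gm17140 (r 0.93) and Gm14066 (r 0.93), for Numb Gm17140 (r 0.95) and D630008O14Rik (r 0.91), and for Ddx4 Phf20l1 (r 0.93) and Gm17140 (r 0.93). For Cobl they were Sla (r 0.89) and Prpf40b (r 0.89), and for Rapgef4 Sla (r 0.92) and Syt12 (r 0.90). For Vps13b they were Kif24 (r 0.80) and Sec24c (r 0.80), lower than for any other member. Gm17140 lies opposite Tg, D630008O14Rik opposite Bcl2, Syt12 opposite A930001C03Rik and Sec24c opposite 6230400D17Rik. Gm17140 and Sla recur in these pairs, and Gm17140, Phf20l1 and Sla lie close together at chr15:66739059-66744327, chr15:66577560-66647976 and chr15:66780819-66831829. The r values above also hold the genotype difference that the members were picked for. Around the group means, Gm17140 had r 0.73 with Gm16277, 0.65 with Numb and 0.52 with Ddx4. On that measure Phf20l1 had 0.66 with Ddx4, and Sla had 0.84 with Cobl and 0.76 with Rapgef4.

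Genes of the members' pathways were read from 8 lists. The members themselves are left out of the counts and sums of these lists. Of 42 Notch pathway genes, the pathway that Numb restrains, 10 could be tested in each limb. Maml1, a Notch co-activator, rose in loaded NT3 tibiae by 1.12 on the log2 scale (SE 0.31, edgeR adjusted p 0.047). The Maml1 call was lost whichever mouse was left out, with adjusted p values from 0.04 to 0.158 over 15 alternatives. edgeR called no other Notch gene between genotypes (unadjusted p under 0.05 for 2 of 10 in loaded and 0 of 10 in non-loaded tibiae, DESeq2 1 and 0 in loaded and non-loaded tibiae). Of 36 genes of Rap1 and cAMP exchange, the pathway of Rapgef4, 11 could be tested in each limb. Rap1b, a Rap1 GTPase, rose in non-loaded NT3 tibiae by 1.55 on the log2 scale (SE 0.37, edgeR adjusted p 0.046). The Rap1b call was lost without any 1 mouse except NT3 mouse 2, with adjusted p values from 0.017 to 0.192 over 15 alternatives. edgeR called no other gene of the list in either limb (unadjusted p under 0.05 for 1 of 11 in loaded and 4 of 11 in non-loaded tibiae, DESeq2 0 and 1 in loaded and non-loaded tibiae). Of the actin nucleators (the class of Cobl), the lipid transfer proteins akin to Vps13b, the germ cell and piRNA genes, the GDNF family, the delta protocadherins and the Wnt co-receptors, edgeR and DESeq2 called none between genotypes, with an unadjusted p under 0.05 for 3 of 17 in loaded and 2 of 19 in non-loaded tibiae. Over all rows tested, 13.3% in loaded and 7.81% in non-loaded tibiae had an unadjusted edgeR p under 0.05. edgeR called 2.65% of all rows in loaded and 0.579% in non-loaded tibiae. Of the delta protocadherins, which include Pcdh7, and of the Wnt co-receptors and inhibitors, which include Tpbg, 1 each could be tested in loaded tibiae. Their summed levels did not overlap there, at 18.2 to 30.7 CPM in NT3 and 31.0 to 62.8 CPM in Ctrl tibiae for the delta protocadherins, and 30.2 to 58.7 CPM in NT3 and 60.8 to 87.0 CPM in Ctrl tibiae for the Wnt list. In non-loaded tibiae both sums overlapped, at 17.1 to 40.7 CPM in NT3 and 30.6 to 60.7 CPM in Ctrl tibiae for the delta protocadherins, and 33.1 to 72.3 CPM in NT3 and 67.0 to 100 CPM in Ctrl tibiae for the Wnt list. The Notch sum was 519 to 544 CPM in NT3 and 465 to 506 CPM in Ctrl non-loaded tibiae, with no overlap, and overlapped in loaded tibiae. The sums of the other 5 pathway lists overlapped between genotypes in both limbs. These sums were not tested, and nothing is read from which of them overlapped. Of single rows tested in loaded tibiae, 3.67% had each NT3 library below each Ctrl library. The delta protocadherin and Wnt sums also hold Pcdh7 and Tpbg, whose exons share bases with rows picked as lower in NT3. With loading, edgeR called 3 of 46 tested rows of the 8 lists, where it called 4.39% of all rows. Of 13 Notch genes tested it called Neurl1a (1.12, SE 0.27, adjusted p 0.0069) and Mib2 (0.56, SE 0.16, adjusted p 0.029), both Notch ligand ubiquitin ligases. Of 2 GDNF family genes tested it called Ncam1 (1.17, SE 0.23, adjusted p 4.2e-04), an adhesion molecule that can bind GDNF. All 3 were higher in loaded tibiae. Of these, Mib2 was called under 6 of 14 alternatives, Neurl1a under 12 and Ncam1 under 13, all 3 calls being lost with a marrow marker covariate. The Neurl1a call was also lost without Ctrl mouse 3, with adjusted p values from 0.0034 to 0.373 over its alternatives. The Mib2 call was also lost by DESeq2, with no filter and without Ctrl mouse 2, 3 or 4 or NT3 mouse 2 or 3, with adjusted p values from 0.019 to 0.136 over its alternatives.

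Markers of bone cells were read next. Their presence alone does not check the tissue label, since all markers on the other cell lists below also had fragments. All 16 osteoblast and osteocyte markers had fragments, and 5 of the 9 tested rose with loading, where 3.24% of all rows did, among them the bone collagen genes Col1a1 (1.63, SE 0.12, edgeR adjusted p 1.7e-13) and Col1a2 (1.22, SE 0.13, adjusted p 1.2e-09). Between genotypes edgeR called 0 of these 9 in either limb, while 7 in loaded and 3 in non-loaded tibiae had an unadjusted p under 0.05, where 13.3% of all rows did in loaded and 7.81% in non-loaded tibiae, and DESeq2 called 1 in loaded and 0 in non-loaded tibiae. The summed level of the list was 753 to 1164 CPM in loaded NT3 tibiae and 979 to 1414 CPM in loaded Ctrl tibiae, and 552 to 841 CPM in non-loaded NT3 and 457 to 776 CPM in non-loaded Ctrl tibiae. The part of this difference in the values of the 8 rows was not tested.

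Markers of other cells were also present. All 16 skeletal muscle markers had fragments, with sums of 371 to 649 CPM in loaded NT3, 373 to 716 CPM in loaded Ctrl, 439 to 849 CPM in non-loaded NT3 and 410 to 699 CPM in non-loaded Ctrl tibiae. All 22 marrow markers had fragments, with sums of 200 to 250 CPM in loaded NT3, 207 to 249 CPM in loaded Ctrl, 209 to 243 CPM in non-loaded NT3 and 185 to 253 CPM in non-loaded Ctrl tibiae. The muscle and marrow ranges overlapped between genotypes in both limbs. All 14 nerve and Schwann cell markers had fragments, with sums of 55.3 to 115 CPM in loaded NT3, 79.9 to 106 CPM in loaded Ctrl, 42.5 to 65.5 CPM in non-loaded NT3 and 54.1 to 80.6 CPM in non-loaded Ctrl tibiae. All 13 periosteum, tendon and fibroblast markers had fragments, with sums of 70.1 to 86.2 CPM in loaded NT3, 71.6 to 128 CPM in loaded Ctrl, 68.3 to 94.9 CPM in non-loaded NT3 and 42.0 to 80.0 CPM in non-loaded Ctrl tibiae. edgeR called none of the muscle, marrow, nerve or periosteum markers between genotypes, and neither did DESeq2. An unadjusted edgeR p under 0.05 was found for 2 of 14 in loaded and 2 of 17 in non-loaded tibiae. The share over all rows was 13.3% in loaded and 7.81% in non-loaded tibiae.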

How the data were processed

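RNA-seq counts of 16 tibia libraries from 8 mice were used. The deposited values are whole-number fragment counts per gene made by the authors. The genome build mm10 and the tools STAR 2.4.2a, featureCounts 1.4.6, Subread and DESeq2 are named in the submitters' processing notes. The annotation release was not given in the sources used here, and 45250 of 47517 rows matched a GENCODE M21 symbol, which gave positions. The members and gene lists were chosen with earlier results of these data known.

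Here rows were filtered with filterByExpr (minimum count 10), TMM-scaled, then tested by robust edgeR 4.0.16 quasi-likelihood tests (limma 3.58.1, R 4.3.3) on all rows, with Benjamini-Hochberg adjustment and calls at 0.05. CPM and log2 CPM (prior count 2) were computed from the deposited counts over the 7192 rows kept in the fit of all libraries, which held 96.7% of fragments. Genotype fits used the 8 libraries of a limb. Loading fits used 16 libraries with a replicate block for mouse, since the design text pairs the limbs. Deviations of the limbs of a mouse from their group means correlated at 0.045 to 0.178 over rows, and another mouse gave a higher value for Ctrl mouse 4 only, 0.0935 against 0.045. Pairs of libraries within a group differed by more than sampling noise (chi-square per degree of freedom 3.77 to 17.7). The mice are separate animals, and no sequencing batch was named in the labels.

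Named were the 8 members, rows whose exons overlap theirs on the other strand by at least 20 bases, called rows within 1 Mb or on a list (up to 4 a list by smallest p), and the 2 rows most alike in log2 CPM among rows with a mean of at least 20 fragments. Rapgef4os1 and Rapgef4os3 were named as well because they lie inside Rapgef4. Alternatives were DESeq2 1.42.0 (test and size factors), no filter, no replicate block, 1 fit for all libraries, both limbs summed, a marrow marker covariate, ribosomal and satellite rows left out, and each mouse left out. The fits were tested on simulated data.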

Additional observations from a re-analysis of the deposited data

Results flagged for a closer look

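Of 32 sets of 4 libraries examined (8 rows in 4 groups), 1 held a library far from the rest. Numb in the loaded tibia of Ctrl mouse 4 had 35.0 CPM, while the other 3 loaded Ctrl tibiae had 52.5 to 54.4 CPM. The gap from the lowest library to the next was 0.903 of the whole range, above Dixon's 95% critical value for 4 samples. Chance gives such a library in about 1 in 20 sets. The same mouse had 64.1 CPM in its non-loaded tibia. Without Ctrl mouse 4 the mean change of Numb with loading was -0.30 on the log2 scale.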

How the results depend on the processing

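All 240 NT3 minus Ctrl values of the 8 rows under 15 alternatives stayed below 0. The rows were picked as lower in NT3 in these same libraries, so nothing is read from this sign. The fit with both limbs summed is the same for both limbs and is counted for each. With both limbs summed the Vps13b difference was -0.68. Counts over all rows moved more. In non-loaded tibiae 36 rows differed between genotypes, against 71 with no filter and 171 with both limbs summed, where more rows were tested. With 1 mouse left out this ran from 12 to 77. In loaded tibiae the 161 called rows ran from 119 to 201 with 1 mouse left out. For loading over both genotypes, 316 rows were called, against 205 with no replicate block, 197 by DESeq2 and 131 with a marrow marker covariate, and 222 to 334 with 1 mouse left out. In NT3, 30 rows were called, against 5 with no replicate block and 17 by DESeq2, and 17 (without NT3 mouse 1) to 44 with 1 mouse left out. In Ctrl, 293 were called, against 171 with no replicate block, 169 by DESeq2 and 140 with the marrow covariate, and 163 (without Ctrl mouse 2) to 325 with 1 mouse left out. Without Ctrl mouse 3 it was 188. For the difference between these loading changes, 10 rows were called, against 17 with the marrow covariate, 17 with no filter and 0 with no replicate block (edgeR, 335 at an unadjusted p under 0.05, DESeq2 with the block 11), and 7 to 14 with 1 mouse left out. The cause of these shifts was not tested.

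Uncalled mean loading values close to 0 changed sign. 9330154J02Rik, at 0.00, was -0.09 with the marrow covariate, -0.02 with no filter, -0.02 with no replicate block, and -0.12 to 0.11 with 1 mouse left out. Cobl, at 0.21, was -0.15 with the marrow covariate and -0.18 to 0.47 with 1 mouse left out. Vps13b, at -0.09, was 0.05 with the marrow covariate and -0.25 to 0.04 with 1 mouse left out. The replicate block changed no call among the 8 rows. Low counts limit Cobl, with 4 to 58 fragments a library, and Gfra1, with 0 to 5.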
